A study of Mus musculus with 36 samples.

Results

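The genes described are Xrcc5, Xrcc6, Prkdc, Dclre1c, Lig4, Xrcc4, Nhej1, Trp53bp1 and Atm, which act in the joining of broken DNA ends. They were taken by symbol, for their role in end joining, from 3 RNA-seq tables of mouse B cell progenitors. These 9 genes are 9 of the 46078 rows of the table of sorted cells, 9 of the 35896 rows of the table of Pax5-/- cells and 9 of the 18721 rows of the table of cultured wild-type and Sirt7-/- cells. All 9 passed the filter on low values in each table (2 or more of the 8 libraries with 10 normalized counts or more) and were tested among 17649, 13345 and 13651 genes, respectively.

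In the sorted table, pro-B (CD43+) and pre-B (CD43-) cells, both gated as B220+ and IgM- among other markers, came from the bone marrow of 2 wild-type and 2 Sirt7-/- mice of the 129Sv strain, 8 to 16 weeks old and of both sexes. The Sirt7-/- mice carried a germline deletion of part of Sirt7, and 1 library of each stage was made from each mouse. In the Pax5-/- table, Pax5-/- pro-B cells on the C57BL/6 background were infected with the retrovirus pMIG as empty vector (EV) or with wild-type Pax5 (Pax5WT), Pax5 K198Q, which mimics acetylation of that lysine, or Pax5 K198R, which mimics its absence. These cells grew on OP9 stroma with cytokines and were sorted by a surface reporter after infection. The table referred to below as the rescue table held pro-B cells cultured in the same way, from 129Sv wild-type marrow with EV and from 129Sv Sirt7-/- marrow with EV, Pax5WT or K198R. Each group had 2 replicates, and ChIP–seq peak lists for Pax5 were available for Pax5WT, K198Q and K198R in Pax5-/- cells, 2 per form. The sorted libraries held between 50004827 and 55536608 reads. The other libraries summed to between 28865461 and 30520853 (Pax5-/- table) and between 27814214 and 30160880 normalized counts (rescue table). The tables were normalized separately, and no level was compared between them.

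V(D)J recombination assembles antigen receptor genes in B and T cell progenitors. The RAG1–RAG2 recombinase cuts at recombination signals and leaves hairpin-sealed coding ends and blunt signal ends, which are then joined by nonhomologous end joining. The Ku heterodimer, made of Ku80 (Xrcc5) and Ku70 (Xrcc6), binds the ends and recruits the kinase DNA-PKcs (Prkdc), which activates the nuclease Artemis (Dclre1c) to open the hairpins. DNA ligase IV (Lig4) with its partners XRCC4 (Xrcc4) and XLF (Nhej1) seals the break, while the kinase ATM (Atm) signals it and 53BP1 (Trp53bp1) protects its ends. Heavy chain genes are rearranged mainly at the pro-B stage and light chain genes at the pre-B stage.

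The labels were checked before the comparisons. Sirt7 was at 2692 and 2533 normalized counts in wild-type pro-B, 363 and 366 in Sirt7-/- pro-B, 5613 and 5219 in wild-type pre-B and 1066 and 821 in Sirt7-/- pre-B libraries, and in culture with EV at 1324 and 905 in wild-type and 336 and 387 in Sirt7-/- cells. Sirt7 was thus lower in Sirt7-/- cells, although reads remained, and these values per gene cannot tell the deleted part of Sirt7 from the rest. The difference on the log2 scale was -2.84 in pro-B (SE 0.14, adjusted p = 0.00292 by limma), -2.53 in pre-B (SE 0.14, adjusted p = 0.00931) and -1.60 in cultured cells with EV (SE 0.22, adjusted p = 0.0251). The cell type field of the labels disagreed with the title for 4 of the 8 sorted libraries, and the titles were used. Dntt, the polymerase that adds nucleotides at heavy chain joints in pro-B cells, lay between 19432 and 30750 normalized counts in the libraries titled pro-B and between 131 and 3838 in those titled pre-B. Il2ra, which encodes the pre-B surface marker CD25, lay between 1593 and 3759.9 in the former and between 16329 and 26038 in the latter, so that neither marker overlapped between the titled stages.

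The sorts differed in other markers too, and these values stand beside each stage and genotype result below. The 5 mature B cell markers (Ighd, Fcer2a, Cr2, Ms4a1 and Cxcr5) summed to between 11423 and 14739 normalized counts in pro-B and to between 84903 and 185285 in pre-B libraries. Ighd was the most abundant of them, and both Sirt7-/- pre-B libraries were above both wild-type ones. Both Sirt7-/- libraries of replicate 2 stood apart. The pre-B one had 3838 normalized counts of Dntt against 423 in replicate 1, a sum of 476 over 9 T cell markers against 79.8 to 108 in the other pre-B libraries, a sum of 44912 over 4 erythroid markers (Hba-a1 the most abundant) against 3185 to 5512, and a sum of 546 over 4 NK cell markers against 90.6 to 315, with Ncr1 at 121 against 0. The pro-B one had an erythroid sum of 25852 against 7542 to 10953 in the other pro-B libraries, a sum of 950.2 over the NK cell markers (Nkg7 the most abundant) against 380.4 to 526, and a sum of 8399 over 7 myeloid markers (Itgam the most abundant) against 18439 to 24399. Of the genes that define T cells, Cd3e and Cd3g were at 0 in all pre-B libraries, while the receptor genes Trbc2 and Trac and the coreceptor gene Cd8a were at 16.9, 17.9 and 8.43 normalized counts in the Sirt7-/- one of replicate 2 and at most at 5.33, 8.36 and 0 in the other 3. Cd3d went the other way, at 0 in both Sirt7-/- pre-B libraries and above 0 in both wild-type ones. The most abundant T cell marker in the Sirt7-/- pre-B library of replicate 2 was Thy1, at 323 against 14.2 to 43.7. In bulk RNA, fewer cells of a type and less RNA per cell cannot be told apart. The part of these other cells in the results was not tested, and the main results on the 9 genes and the other lists that use these libraries are also given without them.

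Pax5 is a transcription factor that commits progenitors to the B lineage, and its binding at the end-joining genes was read first. In the 6 peak lists, a Pax5 peak within 1 kb of an annotated transcript start (an overlap of at least 1 bp) was found for Xrcc6 in 6 lists, Lig4 in 4, Nhej1 in 3, Atm in 2, and Xrcc5, Prkdc and Dclre1c in 1 each. Xrcc4 and Trp53bp1 had none. Prkdc lies within 1 kb of Mcm4 and Atm within 1 kb of Npat, both on the opposite strand, and the Prkdc peak lay inside Mcm4. Of the 9 genes, 3 and 5 had such a peak in the Pax5WT lists, 1 and 1 in the K198Q lists and 4 and 4 in the K198R lists. Among 13283 genes tested in these cells the shares were 36.6% and 41.9%, 16% and 16.1%, and 44.5% and 46.2%, so that the 9 genes had peaks about as often as other genes. Peaks in all 6 lists, as at Xrcc6, were found for 1371 of these genes (10.3%). Peaks in both Pax5WT and both K198R lists but in no K198Q list, as at Lig4, were found for 1133 genes (8.53%).

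Xrcc6 lies on chromosome 15 (GRCm38, 81987835 to 82040085, plus strand) and overlaps Desi1 on the opposite strand. Its start peak, for example chr15:82016122-82016698 in Pax5WT replicate 2, had a fold enrichment over input of 9.42 and 9.87 with Pax5WT, 4.56 and 6.13 with K198Q and 8.19 and 7.13 with K198R. Both K198Q values were below the other 4. A further peak lay in an intron, before the start of a shorter annotated transcript. Its fold enrichment was 8.01 and 6.91 with Pax5WT and 6.41 and 10.4 with K198R, and it was called in neither K198Q list. Lig4 (chromosome 8, 9969049 to 9977686, minus strand) has an outer and an inner transcript start, and the outer one lies within 1 kb of Abhd13. The peak at the outer start had a fold enrichment of 3.08 and 8.10 with Pax5WT and of 6.90 and 5.19 with K198R, and a peak at the inner start was called in Pax5WT replicate 1 (4.08) and K198R replicate 1 (6.63). The lists differ in depth of calling, with 10646 and 11830 peaks for Pax5WT, 3750 and 3957 for K198Q and 12158 and 13997 for K198R, so that a peak absent from the K198Q lists shows only that it was not called there. The peaks of the second K198R list carry the number 3 in their names, and the list was taken as K198R replicate 2, as its title has it.

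**Figure D1:**
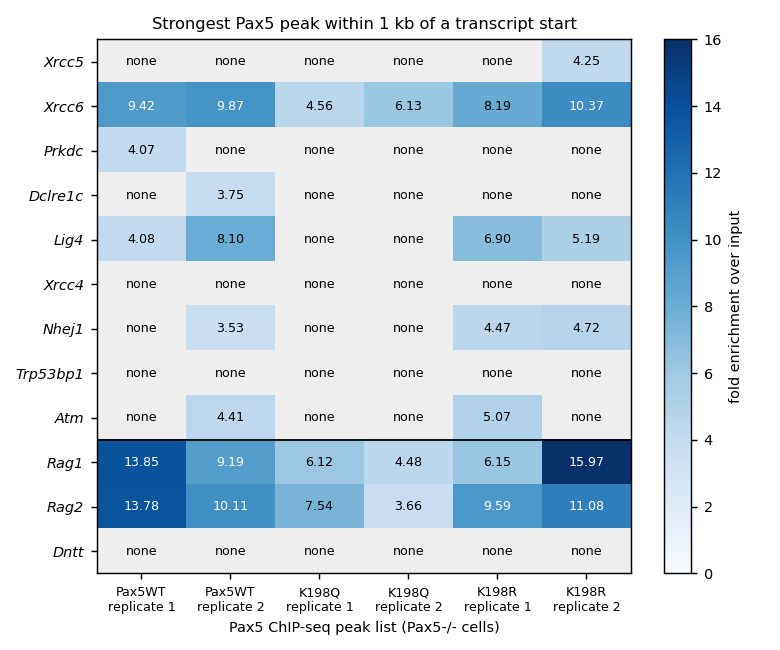
Fold enrichment over input (color and number) of the strongest Pax5 peak within 1 kb of any annotated transcript start, for each of the 9 genes and for Rag1, Rag2 and Dntt (rows), in the 6 peak lists (columns); "none" means that no peak was called. Xrcc6 has a peak in all 6 lists, as have Rag1 and Rag2, and Lig4 has one with Pax5WT and K198R but not with K198Q; for Xrcc6 with K198R replicate 2 the value shown is that of the intronic peak.

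The sequences below, read from the mm10 reference, show regions with peaks that were not called in the K198Q lists and the one promoter with letters of the Pax5 core motif. In the Xrcc6 region shared by the 4 intronic peaks (chr15:82027798-82028063, plus strand) the capitals span the 4 summits, 13 bases. In the Lig4 region before the inner start, inside the Pax5WT peak (chr8:9976300-9976440, minus strand), the capitals are 11 bases centered on the summit. In the 250 bases before the Trp53bp1 start (chr2:121271408-121271657, minus strand) the capitals are the motif matches.
Xrcc6 intronic region: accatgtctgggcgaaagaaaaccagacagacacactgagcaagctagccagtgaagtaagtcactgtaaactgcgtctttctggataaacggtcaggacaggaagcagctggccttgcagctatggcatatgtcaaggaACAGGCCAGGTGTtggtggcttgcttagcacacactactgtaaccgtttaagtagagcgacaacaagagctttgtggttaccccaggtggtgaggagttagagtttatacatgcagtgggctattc
Lig4 before the inner start: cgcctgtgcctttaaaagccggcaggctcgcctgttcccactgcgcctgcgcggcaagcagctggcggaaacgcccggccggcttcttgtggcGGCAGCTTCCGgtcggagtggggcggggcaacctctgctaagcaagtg
Trp53bp1 before the start: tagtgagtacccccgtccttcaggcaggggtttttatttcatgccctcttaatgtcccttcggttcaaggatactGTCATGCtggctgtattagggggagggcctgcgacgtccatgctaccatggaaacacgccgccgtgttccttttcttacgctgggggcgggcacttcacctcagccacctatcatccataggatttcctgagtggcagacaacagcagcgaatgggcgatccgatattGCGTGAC
The letters searched were GCGTGAC and GCATGAC, forms of the core of the Pax5 motif, on both strands (reverse complements GTCACGC and GTCATGC). They do not overlap each other, and either occurs in 1389 of 32851 RefSeq promoters of 300 bases (4.23%) and in 10.3% to 14.5% of the 301-base windows around the summits of a list. The RefSeq promoter table held 8 of the 9 genes, all but Prkdc. Of these promoters the letters were found in that of Trp53bp1 alone, at 175 and at 7 bases before the start, although no list had a peak there. In the peaks of the 9 genes, 1 match lay in the Xrcc6 start peak (inside the called interval in 5 of 6 lists) and 1 in the intronic Xrcc6 peak of K198R replicate 2. A match of letters is a description and not evidence of a site.

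Levels between genes were compared as normalized counts per kilobase of exon. In wild-type pro-B cells the order was Xrcc6 at 1912 ± 27.1 (SD, n = 2), Lig4 at 909 ± 38.1, Xrcc5 at 555 ± 8.04, Trp53bp1 at 333 ± 1.30, Atm at 259.6 ± 3.22, Nhej1 at 232 ± 27.3, Prkdc at 182 ± 0.0795, Dclre1c at 177 ± 23.4 and Xrcc4 at 92.8 ± 7.53. Atm and Nhej1, and Prkdc and Dclre1c, did not differ beyond their spread. Xrcc6 was first and Xrcc4 last in each of the 4 sorted groups and in each of the 4 Pax5-/- groups. Lig4 held the second place in each sorted group. In wild-type pre-B cells Dclre1c moved from the eighth place to the third, at 385 ± 2.05 per kilobase, and Xrcc5 from the third to the sixth, at 273 ± 7.12. By the longest annotated transcript as length, 7 of 9 genes kept their place in wild-type pro-B cells, where Prkdc and Dclre1c changed places, and 9 of 9 in wild-type pre-B cells.

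The comparison of pre-B with pro-B cells asked how the end-joining genes change between the stages of heavy and light chain rearrangement. In both genotypes Dclre1c, Xrcc6 and Lig4 rose and Xrcc5 fell, while the other 5 genes did not pass the test. In wild-type cells this was 4 of 9 genes, where 40.2% of all genes tested were called (18.1% higher and 22% lower). In Sirt7-/- cells it was the same 4 of 9, where 35.7% were called (16.5% higher and 19.2% lower), so that the share of the 9 genes was near that of all genes. The median log2 fold change of the 9 genes was -0.14 in wild-type and 0.05 in Sirt7-/- cells, and that of all genes tested was -0.04 in both. Tested for any difference among the 4 sorted groups (F-test, limma), the same 4 of the 9 genes were called (adjusted p between 0.00101 and 0.00246), where 40.6% of all genes were. With a log2 fold change of at least 1.5 required as well, 0 of 9 were called in either genotype, where 13.9% and 10.2% of all genes were. The 20 proliferation genes fell at the same step (below). Mature B cell markers were higher in pre-B libraries, while the sum of 5 plasma cell markers was 32763 to 72884 in pro-B and 13800 to 15786 in pre-B libraries (Jchain 20006 to 57036 and 881 to 2191), and the sum of the T cell markers was 1416 to 1818 and 79.8 to 476. Of the other plasma cell markers, Mzb1 was also lower in all pre-B libraries, and Xbp1 and Prdm1 overlapped between the stages. Sdc1 went the other way, at 2091 to 2954 in pro-B and 3416 to 4770 in pre-B libraries. The part of all these markers in the stage results was not tested.

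The genes of the Ku heterodimer moved in opposite directions. Xrcc5 was at 1402 and 1431 normalized counts in wild-type pro-B, 685 and 711 in wild-type pre-B, 1511 and 1443 in Sirt7-/- pro-B and 789 and 899 in Sirt7-/- pre-B libraries. All pre-B libraries were below all pro-B libraries, and the log2 fold change was -1.02 (SE 0.12, adjusted p = 0.00083) in wild-type and -0.81 (SE 0.12, adjusted p = 0.00283) in Sirt7-/- cells. Xrcc6 was at 8644 and 8472 in wild-type pro-B, 12696 and 12918 in wild-type pre-B, 7784 and 8405 in Sirt7-/- pro-B and 10323 and 9619 in Sirt7-/- pre-B libraries. The pre-B libraries were the higher ones in both genotypes, with a log2 fold change of 0.58 (SE 0.08, adjusted p = 0.0016) in wild-type and 0.30 (SE 0.08, adjusted p = 0.0255) in Sirt7-/- cells. The ratio of Xrcc6 to Xrcc5 levels per kilobase was 3.52 and 3.38 in wild-type pro-B and 10.6 and 10.4 in wild-type pre-B cells, and it was 2.94 and 3.33 and then 7.47 and 6.11 in Sirt7-/- cells. These are transcript ratios, and the proteins were not measured here.

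Of the genes that open the hairpins, Dclre1c rose and Prkdc did not pass the test. Dclre1c was at 1799.6 and 1492 normalized counts in wild-type pro-B, 3572 and 3599 in wild-type pre-B, 1363 and 1426 in Sirt7-/- pro-B and 2982 and 2464 in Sirt7-/- pre-B libraries. Its stages did not overlap in either genotype, and its log2 fold change was 1.13 (SE 0.14, adjusted p = 0.000988) in wild-type and 0.96 (SE 0.14, adjusted p = 0.00262) in Sirt7-/- cells, the largest increase of the 9 genes. Dclre1c overlaps Suv39h2 on the opposite strand. Prkdc was at 2397 and 2395 in wild-type pro-B and at 1891 and 2160 in wild-type pre-B libraries, with a log2 fold change of -0.25 (95% interval -0.58 to 0.09), and of -0.16 (-0.50 to 0.18) in Sirt7-/- cells.

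Of the ligation complex, Lig4 rose and its partners did not pass the test. Lig4 was at 4587 and 4867 normalized counts in wild-type pro-B, 6739 and 7381 in wild-type pre-B, 3558 and 3681 in Sirt7-/- pro-B and 4658 and 5148 in Sirt7-/- pre-B libraries. The log2 fold change was 0.58 (SE 0.09, adjusted p = 0.00334) in wild-type and 0.44 (SE 0.09, adjusted p = 0.0125) in Sirt7-/- cells, and the stages did not overlap within a genotype. Xrcc4 lay between 286 and 413 normalized counts over the 8 libraries, with log2 fold changes of -0.24 (-0.68 to 0.20) in wild-type and -0.33 (-0.77 to 0.11) in Sirt7-/- cells. Nhej1 lay between 237 and 349, with log2 fold changes of 0.33 (-0.13 to 0.78) and 0.00 (-0.46 to 0.46).

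The genes that signal and protect the break gave no call. Trp53bp1 was at 4728 and 4702 normalized counts in wild-type pro-B, 4422 and 3799 in wild-type pre-B, 4188 and 3010 in Sirt7-/- pro-B and 3804 and 4908 in Sirt7-/- pre-B libraries. The log2 fold change was -0.20 (95% interval -0.65 to 0.24) in wild-type and 0.28 (-0.16 to 0.73) in Sirt7-/- cells. Leaving out 1 library put these values between -0.31 and -0.09 and between 0.05 and 0.52. Atm lay between 2142 and 2758 over the 8 libraries, with log2 fold changes of -0.14 (-0.46 to 0.18) and 0.05 (-0.27 to 0.37). The calls in Sirt7-/- cells were less firm than those in wild-type cells. Without the Sirt7-/- pro-B library of replicate 1, Xrcc6 (adjusted p = 0.136) and Lig4 (0.0672) lost the call, as they did without that of replicate 2, which stood apart (0.0567 and 0.0523), while Xrcc5 and Dclre1c were called. Of all genes, 21.9% and 21% were called without these libraries. Xrcc6 lost its call without the pre-B library of replicate 1 (0.107), where 22.5% of all genes were called. Without the pre-B library of replicate 2, which also stood apart, the same 4 genes were called, where 33.1% of all genes were, with log2 fold changes of -0.90 for Xrcc5, 0.35 for Xrcc6, 1.10 for Dclre1c and 0.36 for Lig4.

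**Figure D2:**
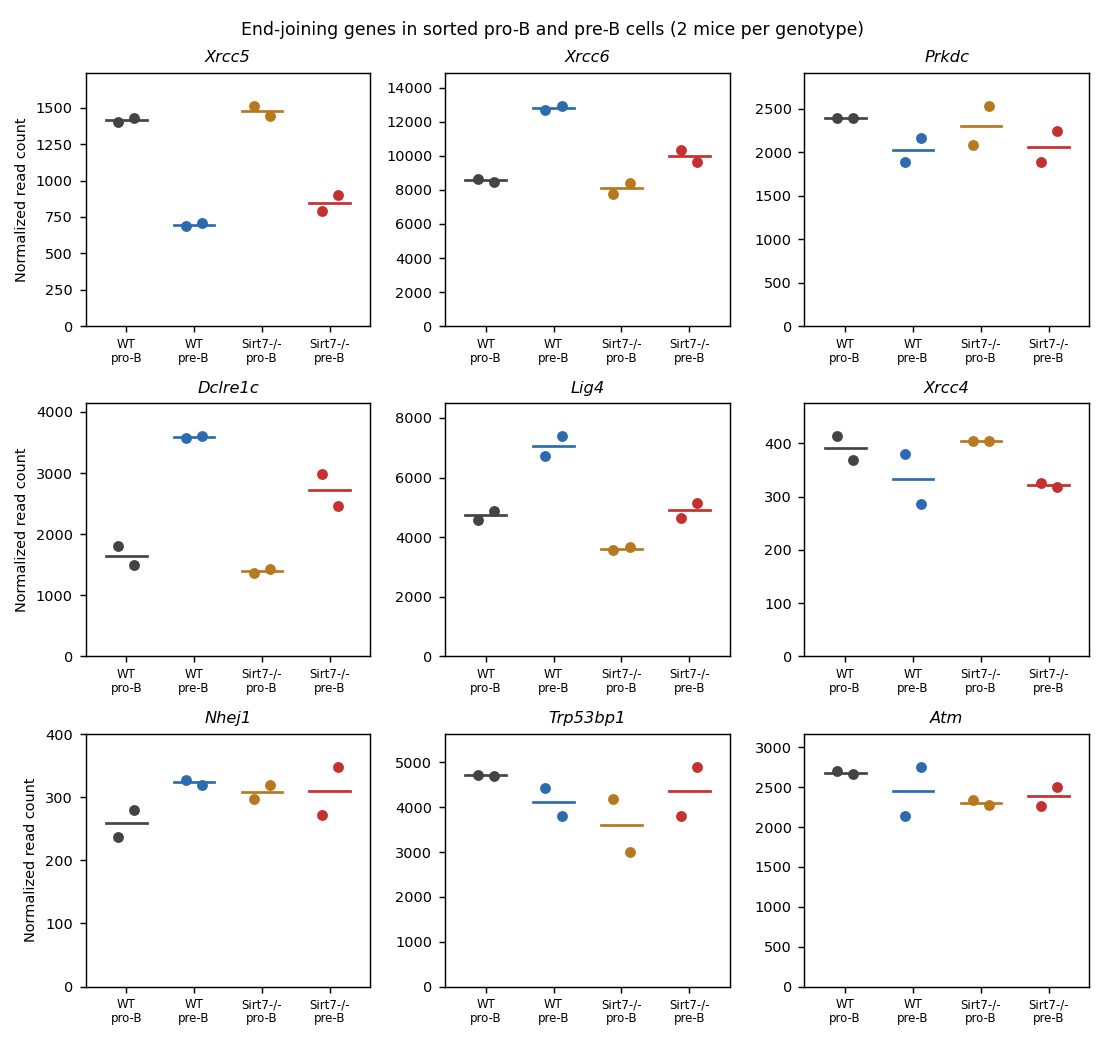
Normalized read counts (y axis, from 0) of the 9 genes in cells sorted at either stage from wild-type (WT) or Sirt7-/- mice; each point is the library of 1 mouse and the bar is the mean of 2. Xrcc5 is lower and Xrcc6, Dclre1c and Lig4 are higher in the pre-B libraries, without overlap with the pro-B libraries of the same genotype; Lig4 libraries of Sirt7-/- mice lie below the wild-type libraries of the same stage.

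Other repair genes were read at the same step, at which 18.1% of all genes tested rose and 22% fell in wild-type cells and 16.5% rose and 19.2% fell in Sirt7-/- cells. Of 12 genes of homologous recombination, the repair that copies a sister chromatid, 11 fell in wild-type mice, 10 fell in Sirt7-/- mice and 0 rose, with median log2 fold changes of -1.51 and -1.04. Among those that fell in wild-type cells were Xrcc2 (-1.75, adjusted p = 0.000324) and Brca2 (-1.57, adjusted p = 0.000328). Of 5 genes of alternative end joining, which joins ends without Ku, 5 fell in wild-type and 4 in Sirt7-/- cells, among them Lig1 (-2.01 and -1.37), a ligase of replication, and Polq (-1.73 and -1.12), the polymerase of that route. All 20 proliferation genes fell in both genotypes, with medians of -1.71 and -1.10. The replication helicase gene Mcm3 had the smallest p of the list in both, with values at about the median (-1.71 and -1.08). The part of cell division in the other lists was not tested. 

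Accessory end-joining factors moved both ways, with 3 up and 3 down of 9 in wild-type mice, 2 up and 3 down in Sirt7-/- mice, and medians of -0.13 and -0.23. Polm, a polymerase used in light chain joining, rose by 2.44 (SE 0.17, adjusted p = 0.000175) and 2.92 (adjusted p = 0.000148) on the log2 scale, while Poll, its relative used in heavy chain joining, changed by -1.65 (SE 0.14, adjusted p = 0.000302) and -1.25 (adjusted p = 0.0011). Tdp1, which clears blocked ends, changed by -1.17 (adjusted p = 0.000793) in wild-type cells. Of 14 genes of break signaling and end protection, 8 fell and 1 rose in wild-type and 8 fell in Sirt7-/- cells, with medians of -0.73 and -0.54. The histone gene H2afx (-1.27), the ATR activator Topbp1 (-0.89) and the ubiquitin ligase gene Rnf168 (-1.24) had the smallest p in wild-type cells, and Shld1, a shieldin subunit, was the one that rose (1.14, adjusted p = 0.0214). Rag1 rose by 1.66 (adjusted p = 0.00358) and 0.91 (adjusted p = 0.0406), and Dntt changed by -7.30 (adjusted p = 0.000945) and -4.58 (adjusted p = 0.00771), on the log2 scale. Without the Sirt7-/- pre-B library of replicate 2, which held more Dntt than the other pre-B libraries, Dntt changed by -6.17 (adjusted p = 0.000444), Polm by 3.07, Poll by -1.29, Lig1 by -1.71, Polq by -1.37, Mcm3 by -1.14 and Rag1 by 0.67 (adjusted p = 0.171) in Sirt7-/- cells, and the medians were -1.20 for homologous recombination, -0.25 for accessory, -0.65 for break-signaling and -1.40 for proliferation genes. In the same fit, 9 of the homologous recombination, 4 of the alternative end-joining, 5 of the accessory and 9 of the break-signaling genes were called in Sirt7-/- cells, and 1 of the 3 recombinase genes, since Rag1 was lost, where 33.1% of all genes were called. Without the Sirt7-/- pro-B library of replicate 2, where 21% of all genes were called, these counts were 7, 2, 4, 3 and 1, and 14 of the 20 proliferation genes were called, with Dntt at -4.56, Polm at 2.82, Poll at -1.24, Mcm3 at -1.05 and Rag1 at 1.13 (adjusted p = 0.0612) and medians of -1.02, -0.15, -0.52 and -1.09 in the order given for the pre-B library.

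**Figure D3:**
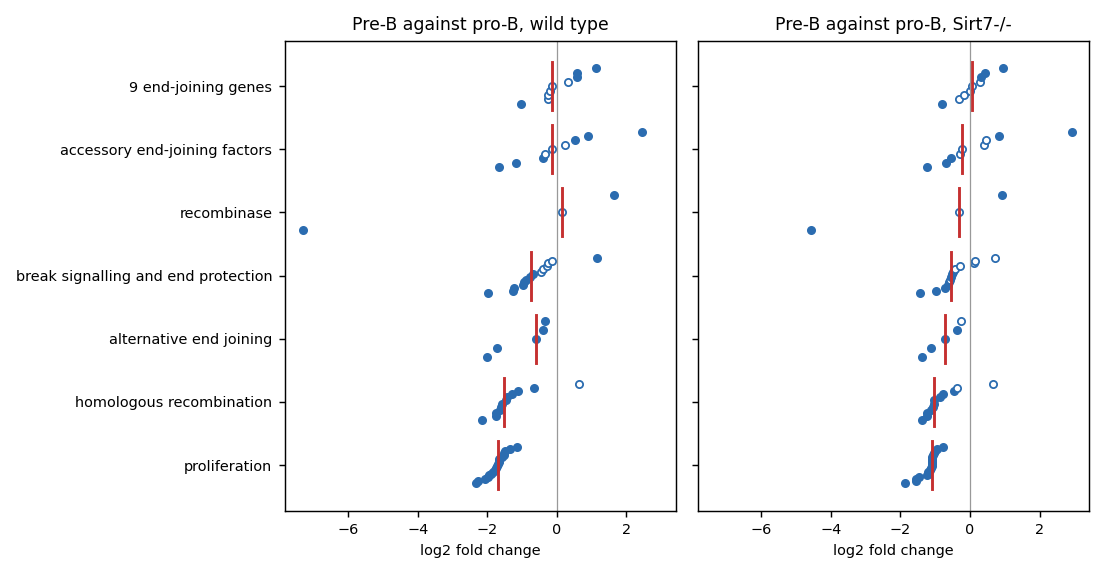
Log2 fold change of pre-B against pro-B cells (x axis) for the 9 end-joining genes and 6 other lists (rows) in wild-type (left) and Sirt7-/- mice (right); each point is a gene, filled where the limma adjusted p is under 0.05, and the red bar is the median of the list. The 9 genes lie on both sides of 0, while the 20 proliferation genes and most homologous recombination genes lie below it.

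The Sirt7-/- comparison asked whether loss of the deacetylase SIRT7 goes with other levels of the end-joining genes. In pro-B cells 0 of the 9 genes were called by limma, where 0.0623% of genes were called, and 0 by edgeR or DESeq2 on the recovered reads, where these called 0.0567% and 0.714%. At an unadjusted p under 0.05 it was Lig4 alone, against 5.94% of all genes. In pre-B cells limma again called 0 of 9, where 0.085% of genes were called. At an unadjusted p under 0.05 it was 3 of 9 (Lig4, Xrcc6 and Dclre1c, all lower), against 13.6% of all genes. In pre-B cells edgeR called 0 of 9, where it called 0.0283% of genes, and DESeq2 called Lig4 (adjusted p = 0.000558) and Xrcc6 (adjusted p = 0.00886), where it called 4.08% of genes. When the Sirt7-/- pre-B library of replicate 2 was left out, DESeq2 called Lig4 (-0.61, adjusted p = 0.000405) and not Xrcc6 (-0.32, adjusted p = 0.0938), where it called 2.43% of genes.

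Lig4 had the lowest p of the 9 genes at both stages. Its log2 fold change was -0.38 (95% interval -0.61 to -0.16, adjusted p = 0.584) in pro-B and -0.53 (-0.75 to -0.30, adjusted p = 0.121) in pre-B cells, and both Sirt7-/- libraries of a stage were below both wild-type ones. For Xrcc6 the log2 fold change was -0.08 (-0.27 to 0.11, adjusted p = 0.952) in pro-B and -0.36 (-0.55 to -0.17, adjusted p = 0.157) in pre-B cells, for Dclre1c -0.23 (adjusted p = 0.923) and -0.40 (adjusted p = 0.268), and for Xrcc5 0.06 (adjusted p = 0.992) and 0.27 (adjusted p = 0.378). Libraries did not overlap between genotypes for 7 of the 9 genes in pro-B cells and for 4 in pre-B cells, where 39.3% and 41.4% of all genes did not overlap. Without the Sirt7-/- pro-B library of replicate 2, the pro-B values were -0.41 for Lig4 (adjusted p = 0.971), -0.14 for Xrcc6, -0.27 for Dclre1c and 0.09 for Xrcc5, and 0 of 9 genes were called. Without the Sirt7-/- pre-B library of replicate 2, the pre-B values were -0.60 for Lig4 (adjusted p = 0.174), -0.31 for Xrcc6 (adjusted p = 0.324), -0.27 for Dclre1c (adjusted p = 0.56) and 0.18 for Xrcc5 (adjusted p = 0.665). No gene of the 6 other lists was called in either Sirt7-/- comparison of sorted cells. In pre-B cells all 20 proliferation genes had a positive log2 fold change, with a median of 0.53, and all 12 homologous recombination genes, with a median of 0.29, where 51.8% of all genes did. Without the Sirt7-/- pre-B library of replicate 2 these were 19 of 20 with a median of 0.27 and 10 of 12 with a median of 0.21, where 51.5% of all genes were positive, and without that of replicate 1 the medians were 0.78 and 0.48.

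The interaction of stage and genotype, which tests whether the change between stages differs in Sirt7-/- mice, called 0 of the 9 genes by limma, by edgeR and by DESeq2, where limma and edgeR each called 0.00567% and DESeq2 0.572% of genes. Xrcc6 alone was under an unadjusted p of 0.05, against 5.43% of all genes, with a smaller rise in Sirt7-/- cells (difference of -0.28, 95% interval -0.55 to -0.01, adjusted p = 0.888). This difference was -0.23 without either Sirt7-/- library of replicate 2 (adjusted p = 0.998 without the pro-B and 0.859 without the pre-B one). With 2 libraries against 2, the smallest p that an exact permutation test of 1 gene allows is 0.33. Such a test could therefore call no difference of any size.

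**Figure D4:**
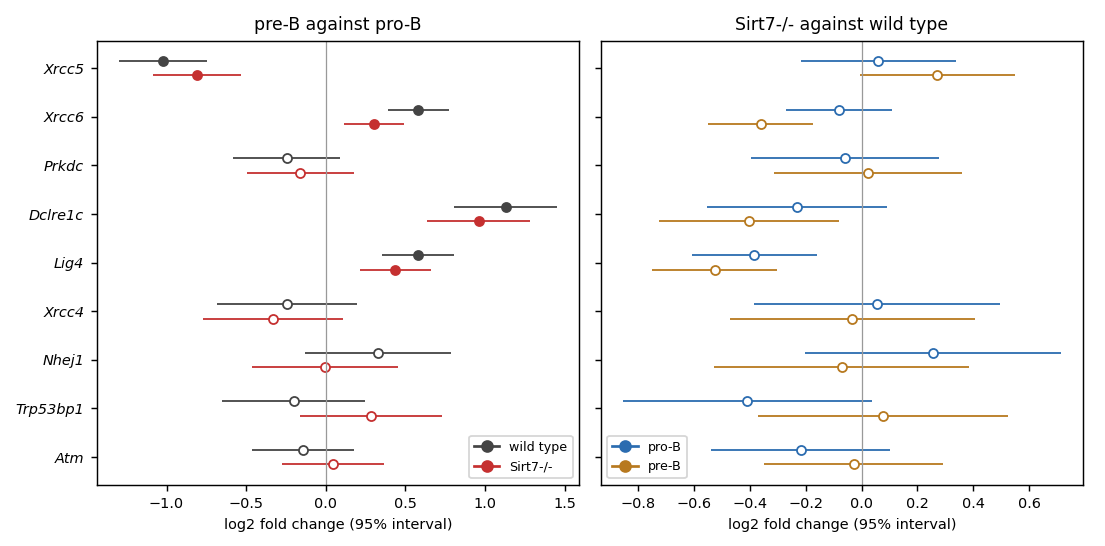
Log2 fold change with its 95% interval from limma for the 9 genes, for pre-B against pro-B cells in each genotype (left) and for Sirt7-/- against wild-type cells at each stage (right); filled points are called at an adjusted p under 0.05. The called genes on the left are Xrcc5, Xrcc6, Dclre1c and Lig4 in both genotypes, and no point is filled on the right, although the intervals of Lig4 at both stages and of Xrcc6 and Dclre1c in pre-B cells lie below 0.

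In Pax5-/- cells the comparison asked how the end-joining genes respond when Pax5 or its K198 mutants are put back. Without a replicate block, no gene of the 9 was called in any of the 6 comparisons by limma. Calls among all genes were 3.25% for Pax5WT, 0.922% for K198Q and 9.92% for K198R against EV, 0.0225% for K198Q and 2.87% for K198R against Pax5WT, and 5.01% for K198R against K198Q. At an unadjusted p under 0.05 there were 1, 1, 3, 0, 2 and 2 of the 9 genes in these comparisons, against 14.4%, 7.86%, 22.9%, 3.46%, 12.7% and 16.9% of all genes. Same-numbered libraries of these cells deviated together, and with the replicate number as a block, 1, 0, 2, 0, 1 and 2 of the 9 genes were called in the same order, where 10.1%, 2.72%, 21.2%, 0.217%, 7.52% and 13.1% of all genes were. For any difference among the 4 groups (F-test, limma), 0 of the 9 genes were called, where 7.28% of all genes were, and the lowest adjusted p was that of Prkdc (0.163). The forms were not equal in level. Pax5 transcripts were at 2201 and 2103 normalized counts with EV, 6458 and 6152 with Pax5WT, 8918 and 8963 with K198Q and 21162 and 16609 with K198R, so that the form and its level cannot be told apart. Reads of Pax5 thus remained with EV, and since the deleted part of Pax5 is not given in the sources used here, the deletion itself was not checked. Cell type markers moved with the forms too. The sum of 6 B lineage markers, among them the receptor gene Cd79a, was 14656 and 13587 normalized counts with EV, 27872 and 30660.4 with Pax5WT, 23512 and 22111 with K198Q and 45462 and 46551 with K198R. The sum of 5 plasma cell markers, most of it Jchain, was 86915 and 86041 with EV, 60847 and 56066 with Pax5WT, 67826 and 60860.2 with K198Q and 51063 and 42616 with K198R. The sum of 4 NK cell markers, most of it Nkg7, was 502 and 609.7 with EV, 222 and 251 with Pax5WT, 306 and 341 with K198Q and 133 and 88.8 with K198R, and Ncr1, which defines NK cells, was at 0 in all 8 libraries. EV libraries thus had the lowest B lineage sums and the highest plasma and NK sums, and K198R libraries the reverse. The 5 pre-B markers summed to 7720 and 8253 with EV and 19258 and 19100 with Pax5WT. With K198Q they summed to 14885 and 13046 and with K198R to 27656 and 26846. The 7 pro-B markers summed to 30156 and 36877 with EV and to between 53852 and 64373 with a Pax5 form. The 9 T cell markers summed to 885 and 870 with EV and to between 363 and 688 with a form. Their part in the values that follow was not tested.

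Lig4 had the largest log2 fold changes of the 9 genes against EV. It was at 268 and 371 normalized counts with EV, 635 and 718 with Pax5WT, 514 and 555 with K198Q and 421 and 871 with K198R. All libraries with a Pax5 form were above both EV libraries, and the K198R replicates were far apart. The log2 fold change against EV was 1.10 (95% interval 0.36 to 1.84, adjusted p = 0.135) for Pax5WT, 0.76 (0.02 to 1.5, adjusted p = 0.614) for K198Q and 0.94 (0.20 to 1.68, adjusted p = 0.12) for K198R. With the replicate block, Lig4 was called for Pax5WT (adjusted p = 0.0163) and K198R (adjusted p = 0.0171). Without K198R replicate 1 the value for K198R was 1.46 (adjusted p = 0.0068), and without replicate 2 it was 0.42 (adjusted p = 0.385). Between the forms, the difference was -0.34 (-1.08 to 0.40) for K198Q and -0.16 (-0.90 to 0.58) for K198R against Pax5WT. Leaving out 1 library put the K198R value between -0.68 and 0.37, so that its sign was not fixed. The Lig4 starts carry Pax5 peaks with Pax5WT and K198R but had none called with K198Q (above).

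For Prkdc and Xrcc6, both K198R libraries lay outside the range of the other 6. Among all genes, K198R libraries did not overlap those with EV for 46.8%, with Pax5WT for 38.4% and with K198Q for 43.1%. The share of genes outside all of these at once was not counted. Prkdc was at 2022 and 2082 normalized counts with EV, 2126 and 1963 with Pax5WT, 1989 and 2010 with K198Q and 2511 and 2480 with K198R. Both K198R libraries were above the other 6, with a log2 fold change of 0.28 (95% interval 0.08 to 0.49, adjusted p = 0.0931) against EV, 0.29 (adjusted p = 0.179) against Pax5WT and 0.32 (0.12 to 0.52, adjusted p = 0.0932) against K198Q. The block gave these an adjusted p of 0.0253, 0.0486 and 0.0234. Xrcc6 was at 7966 and 8543 with EV, 8469 and 8319 with Pax5WT, 8992 and 8299 with K198Q and 7198 and 7002 with K198R. Both K198R libraries were below the other 6, with a log2 fold change of -0.22 (-0.41 to -0.02, adjusted p = 0.173) against EV, -0.24 (adjusted p = 0.252) against Pax5WT and -0.28 (-0.48 to -0.09, adjusted p = 0.119) against K198Q. The block gave these an adjusted p of 0.0566, 0.0768 and 0.0307. The Xrcc6 to Xrcc5 ratio per kilobase was 2.19 and 2.22 with K198R and lay between 2.60 and 2.95 in the other 6 libraries. For the remaining 6 genes, the log2 fold changes of the 3 forms against EV lay between -0.32 (Xrcc4, Pax5WT) and 0.22 (Atm, Pax5WT).

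Rag1 and Rag2, which encode the recombinase, rose in the same cells. Rag1 rose against EV by 2.28 (SE 0.20, adjusted p = 0.00134) with Pax5WT, 1.85 (adjusted p = 0.00657) with K198Q and 3.33 (adjusted p = 0.000137) with K198R on the log2 scale, and Rag2 by 1.69 (adjusted p = 0.00709), 1.27 (adjusted p = 0.044) and 2.54 (adjusted p = 0.000638). With each library left out in turn, these values lay between 1.95 and 2.61, 1.51 and 2.18, and 3.0 and 3.67 for Rag1, and between 1.39 and 2.0, 0.97 and 1.58, and 2.24 and 2.85 for Rag2. Both had Pax5 peaks at their starts in 6 of 6 lists, as had Xrcc6. Of 42 genes of the accessory, break-signaling, alternative end-joining and homologous recombination lists, the one called in any of the 6 comparisons was the exonuclease gene Exo1, which rose by 0.49 (adjusted p = 0.0211) with K198R against EV. Exo1 lost its call without either EV library and without K198R replicate 2. With the replicate block, 1 accessory, 3 break-signaling, 1 alternative end-joining and 1 homologous recombination gene rose in that comparison, where 21.2% of all genes were called. For the recombinase genes, 0 were called with K198Q against EV without K198Q replicate 1, 1 without K198Q replicate 2 or EV replicate 1, and 1 with Pax5WT against EV without Pax5WT replicate 1.

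In the rescue table the comparison asked whether Pax5WT or the deacetylation mimic K198R changes Sirt7-/- cells with EV, and how these differ from wild-type cells. Without a replicate block, no gene of the 9 was called by limma in any of the 4 comparisons. Calls among all genes were 0.557% for Sirt7-/- EV against wild-type EV, 0.0366% for Pax5WT and 4.83% for K198R against EV in Sirt7-/- cells, and 0.425% for K198R against Pax5WT. At an unadjusted p under 0.05 there were 1, 0, 2 and 1 of the 9 genes, against 9.68%, 9.91%, 18.4% and 8.78% of all genes. With the replicate block, 0, 0, 2 and 0 were called, where 2.11%, 1.96%, 11.6% and 2.3% of all genes were. By the F-test of limma for any difference among the 4 groups, Xrcc6 alone of the 9 genes was called (adjusted p = 0.0424), where 8.16% of all genes were. With each library left out in turn its adjusted p lay between 0.0186 and 0.174, and it was under 0.05 only without wild-type EV replicate 2. Pax5 transcripts in Sirt7-/- cells changed against EV by 0.47 (limma adjusted p = 0.426) with Pax5WT and 0.43 (adjusted p = 0.241) with K198R on the log2 scale. Mature B cell markers moved with the 4 groups. Of the 4 in the table, the sum was 1273 and 1154 normalized counts in wild-type cells with EV, 3339 and 3727 in Sirt7-/- cells with EV, 5986 and 12822 with Pax5WT and 11051 and 27071 with K198R, most of it Ighd. Cxcr5 did not follow the sum. It was at 406 and 193 in wild-type and at 1045 and 477 in Sirt7-/- cells with EV. In Sirt7-/- cells it was at 689 and 174 with Pax5WT and at 333 and 107 with K198R. The sum of 7 stroma markers, led by Cxcl12, was 4056 and 2925 in wild-type cells with EV, 2648 and 4100.3 in Sirt7-/- cells with EV, 4508 and 9734 with Pax5WT and 3378 and 7459.9 with K198R. The sum of 5 pre-B markers was 8491 and 10859 in wild-type cells with EV, 4492 and 8788 in Sirt7-/- cells with EV, 6169.8 and 9991 with Pax5WT and 2276 and 5145 with K198R. Of 9 T cell markers 6 were in the table, and their sum, most of it Thy1, was 1499.8 and 822 in wild-type cells with EV, 2125 and 1249 in Sirt7-/- cells with EV, 842 and 333 with Pax5WT and 692 and 343 with K198R. The sum of the 5 plasma cell markers was 9556 and 8642, 7581 and 6392, 6068 and 5127, and 6383 and 5184 in the same order, and that of 2 NK cell markers 107 and 57.7, 201 and 108, 235 and 103, and 429 and 125. Their part in the values that follow was not tested.

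Xrcc6 was at 5569 and 3815 normalized counts in wild-type cells with EV, 3555 and 3030 in Sirt7-/- cells with EV, 3086 and 2957 with Pax5WT and 2335 and 2294 with K198R. The Sirt7-/- libraries were all below the wild-type ones, and those with K198R were the lowest. The log2 fold change was -0.49 (95% interval -0.89 to -0.09, adjusted p = 0.372) for Sirt7-/- against wild-type cells with EV and -0.50 (-0.90 to -0.11, adjusted p = 0.162) for K198R against EV in Sirt7-/- cells, the latter with an adjusted p of 0.0435 with the replicate block. The value against wild-type cells was -0.22 without wild-type replicate 1 and -0.76 without wild-type replicate 2. These comparisons share the Sirt7-/- EV libraries. The ratio of Xrcc6 to Xrcc5 per kilobase was 3.47 and 1.72 in wild-type cells with EV, 1.87 and 1.22 in Sirt7-/- cells with EV, 1.52 and 1.29 with Pax5WT and 0.898 and 0.959 with K198R. The genotypes with EV overlapped, and both K198R libraries were below the other 6. With the longest annotated transcript as length the K198R ratios were 1.22 and 1.30.

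Lig4 was at 1617 and 1475 normalized counts in wild-type cells with EV, 1416 and 1662 in Sirt7-/- cells with EV, 1444 and 1407 with Pax5WT and 870 and 1201 with K198R. Both K198R libraries were below the other 6, with a log2 fold change of -0.59 (95% interval -0.97 to -0.20, adjusted p = 0.1) against EV and -0.48 (-0.86 to -0.10, adjusted p = 0.376) against Pax5WT. The adjusted p against EV was 0.0409 with the replicate block. Without K198R replicate 1 the values were -0.35 and -0.25, and without K198R replicate 2 they were -0.82 and -0.71. Lig4 with EV did not differ by genotype beyond the spread, at -0.01 (-0.39 to 0.37). Atm was the least even gene, between 850 and 1903 normalized counts. For the 6 genes other than Xrcc6, Lig4 and Atm, the log2 fold changes of the 4 comparisons lay between -0.30 and 0.35. Of the other lists, Parp1, a sensor of breaks, was the one gene called, and it was lower in Sirt7-/- than in wild-type cells with EV (-0.67, adjusted p = 0.0351). Parp1 lost this call when any 1 of the 4 libraries compared was left out.

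In the rescue table neither Rag1 nor Rag2 was called by limma without the block. Rag1 was at 5503 and 8196 normalized counts in wild-type cells with EV, 2069 and 5055 in Sirt7-/- cells with EV, 4212 and 7069.9 with Pax5WT and 1037 and 1903 with K198R. Both K198R libraries were below the other 6, while in Pax5-/- cells those with K198R were the highest. The log2 fold change was -1.05 (adjusted p = 0.535) for Sirt7-/- against wild-type cells with EV, and in Sirt7-/- cells 0.75 (adjusted p = 0.683) for Pax5WT against EV, -1.20 (adjusted p = 0.215) for K198R against EV and -1.96 (adjusted p = 0.163) for K198R against Pax5WT. With the replicate block the adjusted p was 0.0184, 0.0549, 0.00298 and 0.00215 in this order. Without Sirt7-/- EV replicate 1 the first 3 values were -0.41, 0.11 and -1.85, without replicate 2 they were -1.70, 1.40 and -0.56, and the fourth lay between -2.40 and -1.52 with 1 library left out. Rag2 was at 1347 and 1548 in wild-type cells with EV, 579 and 1116 in Sirt7-/- cells with EV, 1043 and 1245 with Pax5WT and 465 and 789.5 with K198R. Its log2 fold changes were -0.84 (adjusted p = 0.46), 0.50 (adjusted p = 0.714), -0.41 (adjusted p = 0.592) and -0.91 (adjusted p = 0.422) in the same order, and none was called with the block (adjusted p = 0.0728, 0.233, 0.223 and 0.0552). With 1 library left out these values lay between -1.32 and -0.37, 0.03 and 0.97, -0.88 and 0.07, and -1.29 and -0.53, so that the third turned its sign (without Sirt7-/- EV replicate 2). Over the 3 recombinase genes, Dntt included, the block called 1, 1, 2 and 1, all of them lower.

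**Figure D5:**
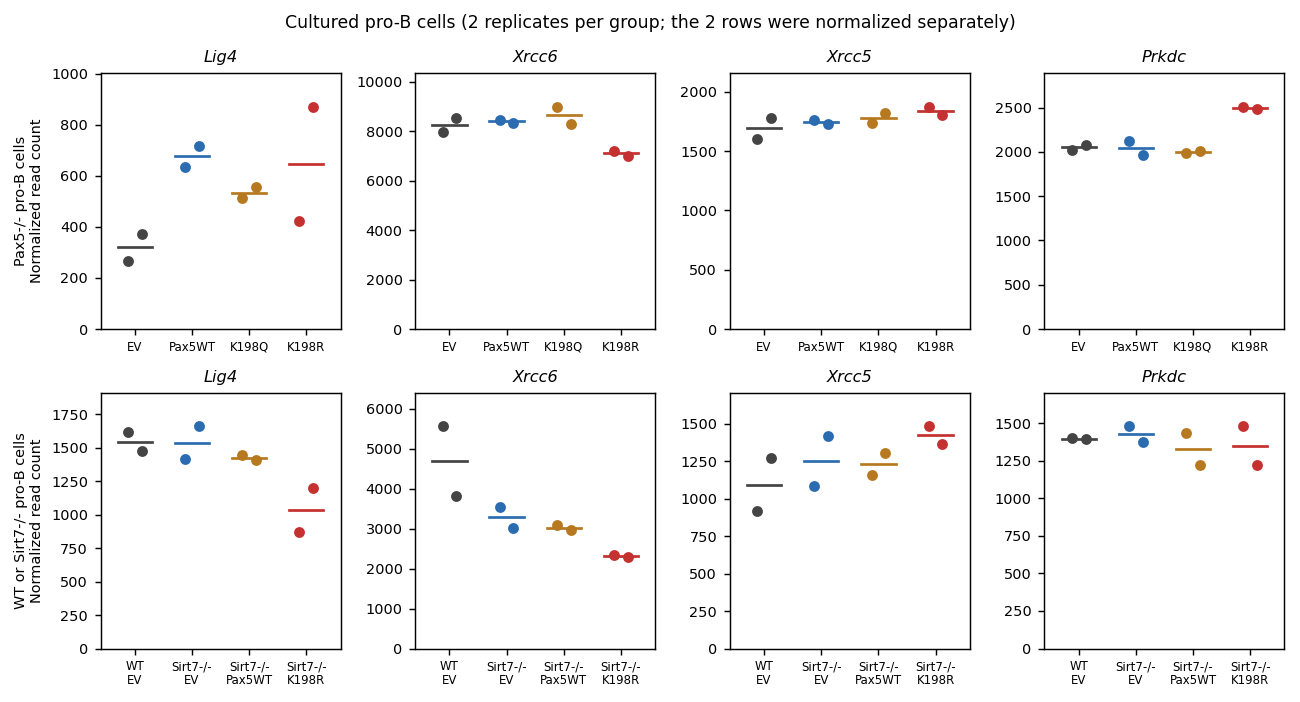
Normalized read counts (y axes, from 0) of Lig4, Xrcc6, Xrcc5 and Prkdc in cultured Pax5-/- pro-B cells (top) and in cultured wild-type or Sirt7-/- pro-B cells (bottom) by vector; each point is a library and the bar is the mean of 2. Lig4 is lowest with EV in Pax5-/- cells and lowest with K198R in Sirt7-/- cells, and Xrcc6 is lowest with K198R in both tables; none of these differences was called at an adjusted p under 0.05 without the replicate block, and with it those of Lig4 against EV were called (except with K198Q, or Pax5WT in Sirt7-/- cells), as was that of Xrcc6 with K198R against K198Q in Pax5-/- and against EV in Sirt7-/- cells.

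For the member with the largest F over the 4 groups of a table, the genes with the most similar pattern over the 8 libraries were read by Pearson correlation. For Dclre1c in sorted cells they were Gosr1 (r = 0.997), Cd84 (r = 0.995) and Edaradd (r = 0.995). For Prkdc in Pax5-/- cells they were Csnk1g3, Ighm and Zfp64 (each r = 0.987), and for Xrcc6 in the rescue table Zfp54 (r = 0.992), Myo1c (r = 0.978) and Spag5 (r = 0.971). The 8 points of a table share their groups and their normalization, and the genes are those with the highest values among all genes tested, so that the correlations are a description.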

How the data were processed

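RNA was measured by poly(A) RNA-seq in 24 libraries of 12 groups (2 replicates each), and Pax5 binding by ChIP–seq in 6 peak lists. The authors quantified reads with Salmon (GC-bias correction, mm10) and deposited gene-level counts divided by DESeq2 size factors, a signal in normalized counts per library. Whether counting used the strand is not given in the sources used here, so that overlapping antisense partners (Desi1, Suv39h2, Tmem167, Gm4117, Tubgcp4) could share reads with Xrcc6, Dclre1c, Xrcc4 and Trp53bp1. For ChIP–seq, the authors used Bowtie2 and MACS2 per sample over its own input and deposited peaks with a fold enrichment ratio and a −log10 q-value.

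The members and gene lists were chosen with earlier results of these data known. Values were tested on log2(normalized count + 1) with limma 3.58.1 (trend, 4 groups per fit, R 4.3.3) and Benjamini-Hochberg adjustment over all genes that reached 10 normalized counts in 2 or more libraries, and a gene was called at an adjusted p under 0.05. Fold changes on this scale understate those of low genes. Of the values of sorted cells, 100% came out as whole reads (tolerance 0.001), and edgeR 4.0.16 and DESeq2 1.42.0 were run on them, calling 6795 and 7551 genes between wild-type stages. In the cultured tables no whole reads were recovered, and the depth is unknown. P-values of limma rest on the spread between the 2 libraries of a group, pooled over the 4 groups of a fit and moderated across genes. They do not measure the spread of the compared groups alone. The text names the 9 genes, checks (Sirt7, Pax5, Rag1, Rag2, Dntt), called genes of each list (the 3 with the smallest p where more than 5 were called) and the 3 genes most correlated with the member of largest F. One gene that this rule names is not reported here. Some called genes beyond those 3 (Polq, Lig1, Shld1 and values in the other genotype) were added after their values were seen, as were the counts of the other lists under alternatives (among them without the Sirt7-/- pro-B or pre-B library of replicate 2), the blocked values of Rag1 and Rag2, the values of these genes and of the lists with a library left out, DESeq2 without those Sirt7-/- libraries, and the F-test. Libraries of 1 mouse correlated by 0.15 (Sirt7-/-) and 0.10 (wild type) in their deviations from group means, and a mouse block kept the 4 calls in each genotype. In the cultured tables, whose replicates the study made on different days, same-numbered libraries correlated by 0.42 to 0.62 (Pax5-/-) and 0.21 to 0.49 (rescue), and results that a replicate block changes are given with it. That a number marks 1 day across groups is not stated. Labels give bone marrow as the source of the Pax5-/- cells and the methods fetal liver. Scripts were tested on simulated data.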

Additional observations from a re-analysis of the deposited data

Results flagged for a closer look

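For 3 of the 9 genes, and for Rag1 and Rag2, the same contrast had opposite signs in different cells, with libraries that did not overlap within either table. The vector contrasts were not alike in Pax5 transcripts. Against EV these rose by 3.12 with K198R and 1.55 with Pax5WT on the log2 scale in Pax5-/- cells. In Sirt7-/- cells the values were 0.43 (limma adjusted p = 0.241) and 0.47 (adjusted p = 0.426). The part of this difference was not tested. The Pax5-/- cells were C57BL/6 and the others 129Sv, and the share of all genes without overlap was 46.8% and 49.6% for K198R against EV, 38.4% and 37.7% for K198R against Pax5WT, 42.6% and 38.7% for Pax5WT against EV (Pax5-/- and Sirt7-/- cells) and 39.3% and 34.6% for Sirt7-/- against wild type (sorted pro-B and cultured cells). Matched by symbol, 14% of 11910 genes had no overlap in both tables and opposite signs for K198R against EV, 6.87% for K198R against Pax5WT and 9.97% for Pax5WT against EV, as had 6.74% of 11175 genes for the genotypes. Over the 7 pairs of comparisons read in this way, 33.8% of 10571 genes had at least 1 such pair, as had 3 of the 9 genes, so that the share of the 9 genes was about that of all genes. Lig4 with K198R against EV had a log2 fold change of 0.94 in Pax5-/- and of -0.59 in Sirt7-/- cells. Dclre1c with Pax5WT against EV had -0.21 in Pax5-/- and 0.29 in Sirt7-/- cells. Trp53bp1 in Sirt7-/- against wild-type cells had -0.41 in sorted pro-B and 0.11 in cultured cells with EV. None of these values of the 3 genes was called at an adjusted p under 0.05 without the replicate block, and with it both Lig4 values were (adjusted p = 0.0171 and 0.0409). Without K198R replicate 2 and without K198R replicate 1, respectively, the Lig4 values were 0.42 and -0.35. Trp53bp1 in sorted cells was -0.17 without the Sirt7-/- pro-B library of replicate 2, which stood apart in erythroid, NK and myeloid markers, and -0.65 without that of replicate 1, and Dclre1c in Pax5-/- cells was -0.09 and -0.33 without Pax5WT replicate 2 and 1. In cultured cells with EV, the Trp53bp1 value lay between 0.04 and 0.19 with 1 library left out. Rag1 had 3.33 and -1.20 with K198R against EV and 1.06 and -1.96 with K198R against Pax5WT, in Pax5-/- and Sirt7-/- cells. Rag2 had 0.85 and -0.91 with K198R against Pax5WT. With 1 library left out, these lay between 3.0 and 3.67 and between -1.85 and -0.56, and between 1.04 and 1.08 and between -2.40 and -1.52 for Rag1, and between 0.71 and 0.99 and between -1.29 and -0.53 for Rag2. Of these 6 values, both of Rag1 in Pax5-/- cells were called without the block (adjusted p = 0.000137 and 0.0366, the latter between 0.0743 and 0.225 with 1 library left out), and both of Rag1 in Sirt7-/- cells (adjusted p = 0.00298 and 0.00215) and that of Rag2 in Pax5-/- cells (adjusted p = 0.0455) with it. The differences between the tables were not tested, since the tables were normalized separately.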

How the results depend on the processing

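The 4 stage calls of wild-type cells (Xrcc5, Xrcc6, Dclre1c, Lig4) held under the other pseudocounts, filters, centring, variance models, edgeR, DESeq2, the mouse block and each left-out library, and none of these reversed the direction of a called member. With a log2 fold change of at least 1.5 required, 0 of 9 genes were called in either genotype (13.9% and 10.2% of all genes). Quantile normalization also called Nhej1 in wild-type cells (0.58, adjusted p = 0.0497). In Sirt7-/- cells the count was between 2 and 4 of 9 with 1 library left out, and Xrcc6 lost its call without the variance trend (adjusted p = 0.0844), with only the compared groups fitted (0.0771) and under quantile normalization (0.104). At an unadjusted p under 0.05 the counts were 1 and 3 for Sirt7-/- against wild type in pro-B and pre-B cells, 1 for the interaction, 1, 1 and 3 for Pax5WT, K198Q and K198R against EV in Pax5-/- cells, 2 for K198R against Pax5WT and 2 against K198Q there, 1 for Sirt7-/- EV against wild-type EV, and 2 and 1 for K198R against EV and Pax5WT in Sirt7-/- cells. DESeq2 called 2 in the pre-B comparison of genotypes, and 1 without the Sirt7-/- pre-B library of replicate 2. With only the compared groups fitted, 1 (Lig4, adjusted p = 0.0356) was called for Pax5WT against EV in Pax5-/- cells, and with 1 library left out, 0 to 1 for K198R against EV. By the longest transcript, 5 of 9 genes kept their place in the order of the mean levels over all sorted groups. Nhej1 had no value under the filter of a mean of at least 100 in the cultured tables. The counts of start peaks kept within 1.5 times with a 5 kb window, a stricter q or the summit alone.

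With the replicate block in the cultured tables, 1 gene was called for Pax5WT against EV (Lig4, adjusted p = 0.0163), 2 for K198R against EV (Lig4, 0.0171, and Prkdc, 0.0253), 1 for K198R against Pax5WT (Prkdc, 0.0486) and 2 for K198R against K198Q (Prkdc, 0.0234, and Xrcc6, 0.0307) in Pax5-/- cells, and 2 for K198R against EV in Sirt7-/- cells (Lig4, 0.0409, and Xrcc6, 0.0435). The block changed no other call of the 9 genes. It moved the calls among all genes from 434 to 1343, 123 to 363, 1324 to 2834, 3 to 29, 383 to 1004 and 668 to 1749 in the 6 comparisons of Pax5-/- cells, in the order above, and from 76 to 288, 5 to 268, 659 to 1588 and 58 to 314 in the 4 of the rescue table.

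Calls among all genes also moved by more than 1.5 times for Sirt7-/- against wild type in pro-B (11, with 126 by DESeq2 and 0 with only the compared groups) and pre-B cells (15, with 720 by DESeq2, 5 by edgeR, 44 without the variance trend, 0 with only the compared groups and 177 without the Sirt7-/- pre-B library of replicate 1). Without 1 library, the stage counts were 4698 (without the wild-type pro-B library of replicate 2) against 7090, and 3705 to 3967 against 6293 in Sirt7-/- cells. With 1 library left out, the 6 comparisons of Pax5-/- cells gave 89 to 166, 31 to 67, 561 to 820, 0 to 1, 20 to 576 and 32 to 341 where the count moved by more than 1.5 times. Of the 5 alternative end-joining genes, 2 stayed called in wild-type cells without the pre-B library of replicate 1 or the pro-B library of replicate 2, and of the 8 called break-signaling genes in Sirt7-/- cells 3 to 5 did when either pro-B library or the pre-B library of replicate 1 was left out. Exo1 and Parp1 each lost their call with 1 library left out, without the variance trend and with only the compared groups. The causes were not tested.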
